A study of Mus musculus with 617 samples.

Results

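The 10 genes described here carry glucose into the cell and turn it into lactate: the glucose transporter Slc2a1, hexokinase Hk2, the phosphofructokinases Pfkl and Pfkp, aldolase Aldoa, triosephosphate isomerase Tpi1, phosphoglycerate kinase Pgk1, enolase Eno1, pyruvate kinase Pkm and lactate dehydrogenase Ldha. They were chosen by symbol, and all 10 were found among the 43628 Ensembl gene IDs that each expression table lists. The values were FPKM, a fragment count scaled by transcript length and by sequencing depth, in single mouse cells of 13 groups. In the mm10 annotation (GENCODE, chromosome, start and end) the members lie at chr4:119108711-119137983 (Slc2a1), chr6:82725025-82774454 (Hk2), chr10:77986947-78010083 (Pfkl), chr13:6579768-6648777 (Pfkp), chr7:126795234-126800751 (Aldoa), chr6:124810586-124814296 (Tpi1), chrX:106187100-106203699 (Pgk1), chr4:150236721-150248879 (Eno1), chr9:59656368-59679375 (Pkm) and chr7:46841475-46855627 (Ldha). Levels are given for every cell type and stage, and the ES cells, which stand for naive pluripotency, are set against the Epi cells, which stand for primed pluripotency.

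A female and a male line of embryonic stem (ES) cells, each from a male CAST/EiJ and a female C57BL/6J parent, gave all cultured cells, so line and sex are the same factor. ES cells in 2i and LIF, a medium with a pair of kinase inhibitors, gave 60 female and 51 male cells. The serum and LIF medium gave 68 female and 52 male ES cells. Epiblast stem cells made from the same lines with Activin A and FGF2, labelled Epi, gave 79 female and 63 male cells. Cells taken through embryoid bodies with retinoic acid and the smoothened agonist SAG, labelled motor neuron, gave 39 female and 35 male cells, and per the labels this protocol also yields interneurons. Another female Epi culture, of 7 passages, gave 41 cells. From the same cross came 23 E3.5 cells of the ICM, the inner cell mass, and 23 E4.5 cells of the epiblast, whose sex the labels leave blank. The E5.5 epiblast, with 20 female and 63 male cells, had C57BL/6J parents on both sides. Ages are embryonic days, and how many embryos the cells came from is not given in the labels.

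Glycolysis splits glucose into pyruvate and yields ATP without oxygen. Hexokinase traps glucose in the cell, phosphofructokinase sets the pace of the pathway, and pyruvate kinase closes it. Lactate dehydrogenase then turns pyruvate into lactate, which monocarboxylate transporters such as Slc16a1 and Slc16a3 carry across the membrane. Naive mouse ES cells are known to use both respiration and glycolysis, whereas primed cells are known to lean on glycolysis. Several of these genes are textbook targets of the hypoxia-inducible factor HIF1, which binds DNA at ACGTG, and of Myc, which binds at CACGTG.

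The promoters of 4 members show how differently the genes hold these letters, and they are printed to set the member with the most matches beside 3 with fewer. The 250 bases before the RefSeq start site were searched for ACGTG on both strands, so CACGT is a match too, and CACGTG counts on each strand. Of 32851 RefSeq mouse promoters (GRCm38.p6), 16.6% held at least 1 match in a window of this length and 6.81% held 2 or more. Among the members 6 of 10 had a promoter with a match, beside 18.5% of all genes, and Aldoa and Pkm, not printed, had 1 in a window. The 10 members had 16 listed promoters and all 27025 genes had 32851, and a gene with more promoters has more windows to match. Pfkl, Pfkp, Tpi1 and Eno1 had none in any listed promoter, which says only that these letters are not in those windows. Ldha, at chr7:46845554-46845803 on the plus strand, had 5 matches, 4 of them from 2 copies of CACGTG, and 0.134% of all promoters had as many or more. The other listed Ldha promoter, at chr7:46846832-46847081, had 0 matches and is not printed. Pgk1, at chrX:106186850-106187099 on the plus strand, had 2 matches, as did Hk2, at chr6:82774455-82774704 on the minus strand. Slc2a1, at chr4:119108495-119108744 on the plus strand, had 1. Each is written 5′ to 3′ along the gene, with the matches in capitals.
Ldha: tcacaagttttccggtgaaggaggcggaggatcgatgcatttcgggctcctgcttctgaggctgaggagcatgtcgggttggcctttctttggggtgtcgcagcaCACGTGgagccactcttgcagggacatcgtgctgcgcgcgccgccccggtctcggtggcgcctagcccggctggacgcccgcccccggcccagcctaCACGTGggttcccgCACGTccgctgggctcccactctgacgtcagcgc
Pgk1: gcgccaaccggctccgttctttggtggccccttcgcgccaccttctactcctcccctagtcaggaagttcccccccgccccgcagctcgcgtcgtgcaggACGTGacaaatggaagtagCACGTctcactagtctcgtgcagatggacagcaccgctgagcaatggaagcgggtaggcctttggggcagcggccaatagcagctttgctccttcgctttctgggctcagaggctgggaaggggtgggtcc
Hk2: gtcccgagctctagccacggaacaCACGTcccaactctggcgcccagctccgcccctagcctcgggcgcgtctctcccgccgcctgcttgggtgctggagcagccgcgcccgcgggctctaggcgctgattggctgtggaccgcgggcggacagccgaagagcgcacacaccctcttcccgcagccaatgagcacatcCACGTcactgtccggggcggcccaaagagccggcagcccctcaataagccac
Slc2a1: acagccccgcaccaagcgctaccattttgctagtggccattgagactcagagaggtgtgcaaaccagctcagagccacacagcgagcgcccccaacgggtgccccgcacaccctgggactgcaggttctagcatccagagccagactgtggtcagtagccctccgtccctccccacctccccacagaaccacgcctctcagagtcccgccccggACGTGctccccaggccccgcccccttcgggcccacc
A match is a description of the letters, and no binding was measured.

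Median depth, estimated from the lowest values of each cell, was about 2060000 to 3050000 fragments per cell in the cultures of the main table, 2910000 after 7 passages, 7280000 at E3.5, 3540000 at E4.5, and 1170000 and 1260000 in female and male E5.5 cells. One Ldha fragment was then worth 0.0415 to 0.259 FPKM at the median cell of a group, well under the levels of most members. The labelled types were checked against their markers. Zfp42, a naive marker, averaged 72.5 FPKM in the Epi female culture against 0.0687 in the Epi male one and 0.117 after 7 passages, and all 7 naive markers averaged at least 1 FPKM there, against 2 of 7 in the other Epi cultures. All 6 primed markers averaged at least 1 FPKM in the Epi female culture as well, against 5 of 6 in the male one and 4 of 6 in each serum culture. Fgf5 (14.1 FPKM), Otx2 (30.8), T (2.199) and Zic2 (1.54) lay under the male Epi means of 144.9, 172.7, 153.8 and 3.69, whereas Dnmt3b (112.3) and Pou3f1 (3.39) lay above 63.2 and 0.999. All 6 were higher there than in both serum cultures, Otx2 for example beside 22.2 and 23.7 FPKM. The library labelled Epi female thus held naive and primed markers together, and the changes of the members in Epi are given with and without it. At E4.5 the trophectoderm marker Cdx2 averaged 48.6 FPKM beside 306 for Pou5f1, and the endoderm marker Sox17 averaged 32.8, so these cells held markers of other blastocyst lineages. Cdx2 and Sox17 averaged 13.7 and 22.2 FPKM at E3.5, 8.59 and 35.1 in E5.5 females and 2.91 and 9.90 in E5.5 males. Titles of E3.5 and of E4.5 cells begin with the same word, lateblast.

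Some facts limit the members' own values. Pgk1 has an annotated copy, Pgk1-rs7, that is identical over 1255 bases of its 1825-base transcript and is listed at 0 in every group, so the Pgk1 level is uncertain and its group means of 0.877 to 24.6 FPKM should not be compared with other genes. Eno1 has a near-identical copy, Eno1b, and all its copies together made up at most 5.57% of the summed level. The longest Pfkp transcript shares 748 bases with its overlapping neighbour Pitrm1, which averaged 10.8 to 47.3 FPKM, and reads of either could be split between them because strandedness is not given in the sources used here. Gene-level values do not separate the M1 and M2 forms of Pkm. Gapdh, a pathway gene outside the members, has 162 listed copies. They made up 18.8% to 46.9% of the summed level by group, so the Gapdh values given below are uncertain.

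Across the cells the members differed most between stages. Their summed level was 446 ± 133.03 FPKM (SD, n = 23 cells) at E3.5 and 522 ± 123.7 (SD, n = 23 cells) at E4.5. It was 2249 to 3696 FPKM in the 8 ES, Epi and motor neuron cultures of the main table. At E5.5 it was 11318 ± 1041 (SD, n = 20 cells) in females and 11161 ± 1010 (SD, n = 63 cells) in males. As a share of the FPKM of all protein-coding genes, which does not depend on the scale of a table, the members made up 0.139% at E3.5, 0.169% at E4.5, 0.401% and 0.411% in 2i (female, male), 0.413% and 0.629% in serum, 0.647% and 0.654% in Epi, 0.654% after 7 passages, 0.285% and 0.288% in motor neuron cultures, and 1.56% and 1.62% at E5.5. The tables were normalised separately, so an order across them is descriptive.

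**Figure D1:**
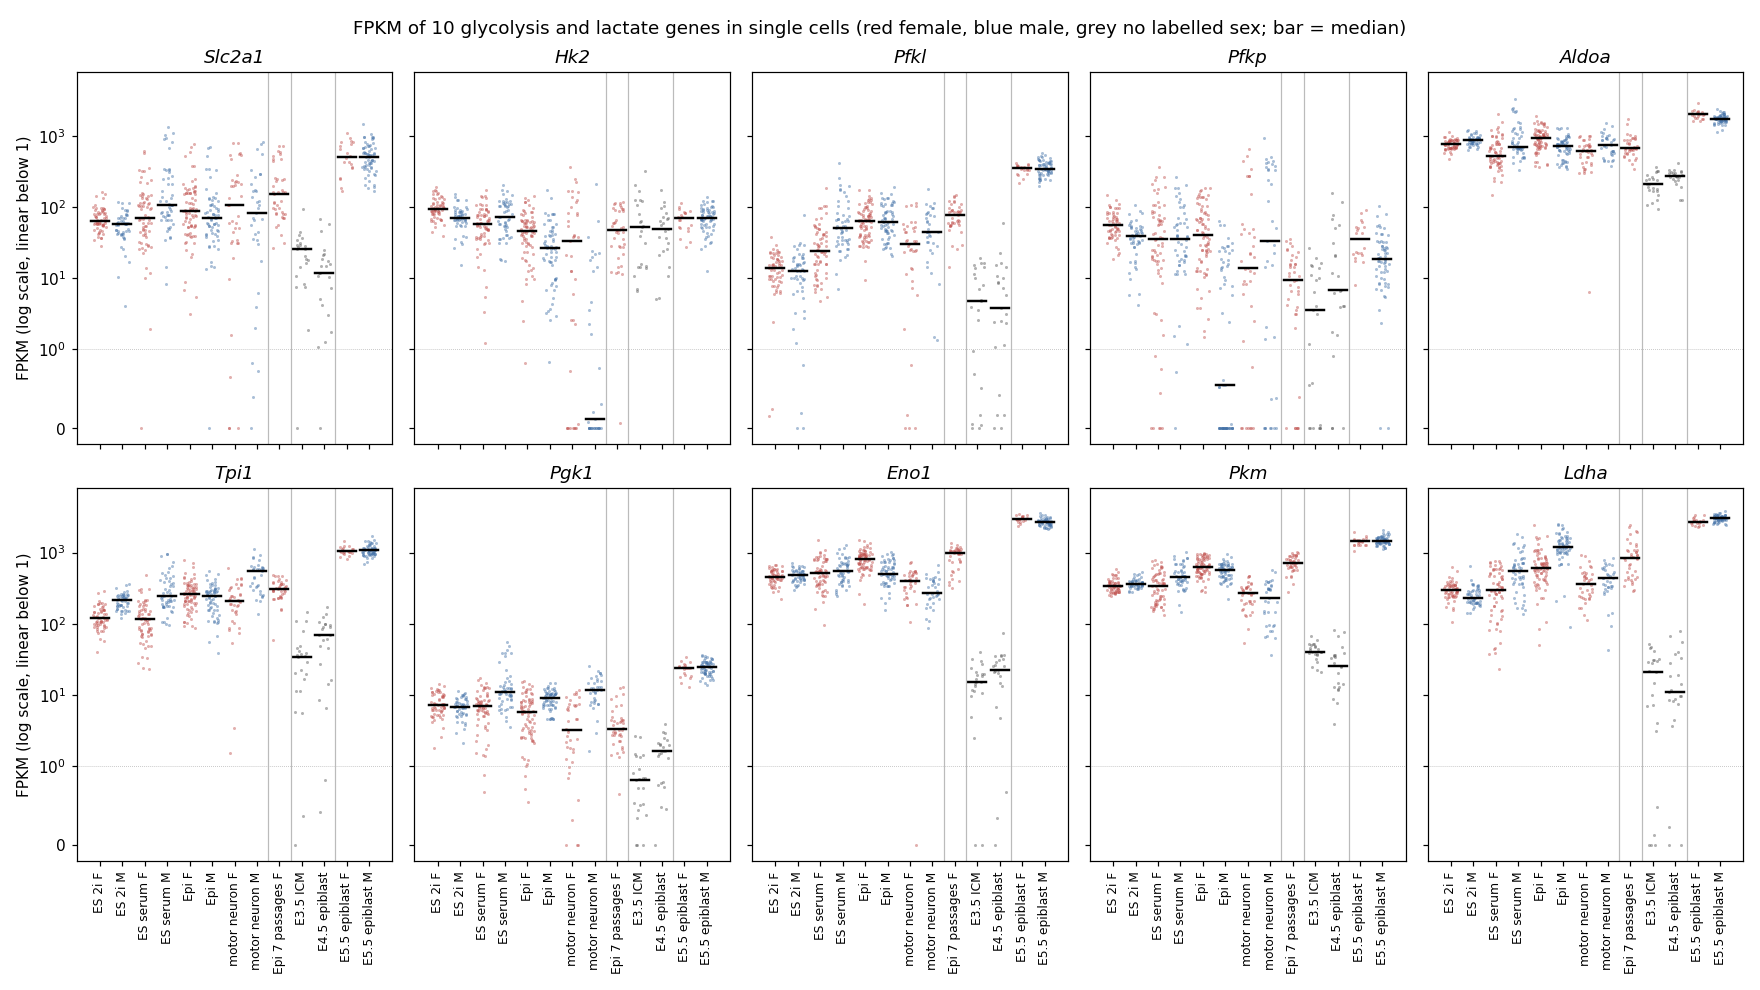
FPKM (y axis, logarithmic above 1 and linear below) of each of the 10 members in every cell, by labelled group (x axis), with female cells in red, male cells in blue, cells of no labelled sex in grey, and a bar at each group's median; grey vertical lines part the 4 separately normalised tables. Ldha medians ran from 10.95 FPKM at E4.5 to 3081 in E5.5 males, while Hk2 medians ran from 26.9 to 95.8 apart from the motor neuron male culture, at 0.123.

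The first comparison asked whether the members differ between the media of naive cells. Slc2a1 averaged 71.8 FPKM in female and 57.6 in male 2i cells, against 112.2 in female and 241.5 in male serum cells. Both serum cultures were higher than both 2i cultures, more so in the male line, and the log2 change was 1.34 (SE 0.37, limma adjusted p = 0.263). Pfkl, the liver-type phosphofructokinase, averaged 14.5 and 14.1 FPKM in 2i (female, male) and 34.2 and 75.1 in serum. This was the largest difference of a member here, at a log2 change of 1.76 (SE 0.40, limma adjusted p = 0.197). Ldha averaged 305 and 253.2 FPKM in 2i and 340 and 625 in serum, a log2 change of 0.73 (SE 0.39, limma adjusted p = 0.663). Here the female cultures lay close together and the difference rested mostly on the male line. The other members had log2 changes of -0.26 (Hk2) to 0.47 (Pgk1).

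None of the 10 members was called, where a call takes both a limma adjusted p below 0.05 and a log2 change of 1 or more in size. The background was low too, with 1 gene of 15504 higher (0.00645%) and 2 lower (0.0129%). With the line as a block, since both lines run through all states, 0 genes were called in either direction. At an unadjusted p under 0.05 there were 2 members (Slc2a1 and Pfkl) and 1549 of all genes. The members' median log2 change was 0.28, beside 0 for all genes tested. Culture means did not overlap for 4 members, all higher in serum (Slc2a1, Pfkl, Eno1, Ldha), where 27.1% of all genes did the same. None was lower throughout, against 26.2% of all genes.

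Of 51 other genes of the pathway 42 passed the level filter, and none was called in either direction. Slc16a3, the lactate exporter known as MCT4, averaged 0.918 and 1.70 FPKM in 2i (female, male) and 10.8 and 60.8 in serum. Its log2 change of 3.57 (SE 0.74, limma adjusted p = 0.160) was the largest on the list. Adm, a hypoxia-response gene, followed at 2.61 (SE 1.49, limma adjusted p = 0.697). The largest differences towards 2i were Hk1, the hexokinase of most tissues, at -1.13, and Tigar, which lowers fructose 2,6-bisphosphate, at -1.11. Among the isoform partners Ldhb had 1.26, Slc2a3 -0.94, Aldoc -0.80, Eno2 1.06, Pdk1 1.80, Pfkm 0.24, Slc16a1 0.08 and Gapdh -0.06.

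The male serum culture was itself uneven. Its cells fall into a lower run of title numbers (n = 13) and a higher run (n = 39), which the labels do not explain. Slc2a1 averaged 77.02 FPKM in the lower run and 296 in the higher one, Ldha 310 and 731, and Pgk1 8.60 and 17.2. Outside the members, Slc16a3 averaged 9.81 and 77.8 FPKM and Bnip3, a hypoxia-response gene named after its values were seen, 4.73 and 55.5, while Ldhb went the other way, at 186 and 60.7. In the female serum culture the order differed, with Aldoa at 833 FPKM in the lower run (n = 30) and 497 in the higher (n = 38), and Pkm at 494 and 260. Fitted within runs, the serum against 2i log2 change of Slc2a1 was 0.69 in the lower and 1.34 in the higher run, that of Ldha 0.20 and 0.86, and that of Pfkl 1.66 and 1.53. Eno1 (0.63 and -0.03) and Pkm (0.54 and -0.07) had opposite signs in the runs, as did Pfkp (1.08 and -0.53).

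Naive against primed cells was the central comparison, of Epi with the mean of both ES media. Ldha had the highest log2 change of the members, at 1.39 (SE 0.34, limma adjusted p = 0.266). It averaged 682 FPKM in female and 1290 in male Epi cells, and both values lay above all 4 ES cultures (253.2 to 625). Cells of the Epi male culture ranged from 88.6 to 2520 FPKM around a median of 1214. Pfkl averaged 68.6 FPKM in female and 72.3 in male Epi cells, close to the male serum culture, at 75.1, and above the other ES cultures. Its log2 change was 1.34 (SE 0.35, limma adjusted p = 0.287). Pkm averaged 652 and 565 FPKM in Epi (female, male) against 350 to 501.3 in the ES cultures, with a log2 change of 0.63 (SE 0.17, limma adjusted p = 0.304).

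Hexokinase and Pfkp lay the other way. Hk2 averaged 50.5 FPKM in female and 33.7 in male Epi cells, under all 4 ES cultures (63.4 to 101.1), with a log2 change of -0.92 (SE 0.58, limma adjusted p = 0.537). Pfkp, the platelet-type phosphofructokinase, averaged 57.8 FPKM in female Epi cells, within the ES range of 40.2 to 62.98, and 10.1 in male ones. In the male culture 29 of 63 cells (46.03%, 95% exact Clopper-Pearson interval 33.4 to 59.1) reached 1 FPKM, and the median was 0.553. The log2 change of Pfkp was -1.11 (SE 0.67, limma adjusted p = 0.516), -0.10 in the female line and -2.12 in the male line. Slc2a1 (0.23), Aldoa (0.03), Tpi1 (0.49), Pgk1 (-0.22) and Eno1 (0.37) had smaller changes, and the lines differed in sign for Slc2a1, Aldoa and Tpi1.

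Without the Epi female culture, so that Epi rested on the male culture alone and its spread was taken from the other states, Ldha had a log2 change of 1.85 (SE 0.36, limma adjusted p = 0.0719). Pfkl stood at 1.38 (SE 0.49, limma adjusted p = 0.201) and Pkm at 0.52 (SE 0.22, limma adjusted p = 0.250). Pfkp moved to -2.32 (SE 0.46, limma adjusted p = 0.0738) and Hk2 to -1.21 (SE 0.83, limma adjusted p = 0.468). Eno1 went from 0.37 to 0.088, Slc2a1 to 0.13 and Tpi1 to 0.41, while Aldoa (-0.16) and Pgk1 (0.032) changed sign.

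No member was called here, beside 6 of 15504 genes higher (0.0387%) and 4 lower (0.0258%), or 3 and 1 with the line as a block. Without the Epi female culture 350 genes were called higher (2.26%) and 1.84% of genes lower, and still none of the members. Leaving out the Epi male culture gave 77 and 4 genes, and leaving out any 1 of the 4 ES cultures gave 0 in both directions. An unadjusted p under 0.05 was reached by 3 members (Ldha, Pfkl, Pkm) and by 1944 of all genes. Culture means did not overlap for Pkm and Ldha, both higher in Epi, as for 18.6% of all genes, and for Hk2, lower in Epi, as for 5.79% of all genes. The members' median log2 change was 0.30, beside 0.13 for all genes. Of the 5 endoderm markers 4 averaged at least 1 FPKM in the Epi male culture, against 2 of 5 in the Epi female culture and at most 1 of 5 in ES cultures. Sox17 averaged 63.5 FPKM in the Epi male culture, but its median was 0 and only 11 of 63 cells reached 1 FPKM. After 7 passages 6 of 41 cells did. Over the cells of the Epi male culture (n = 63 cells) Ldha had a Pearson r of 0.57 with the mean of these markers, and after 7 passages (n = 41 cells) of 0.59, the highest of the 10 members in both, against 0.24 in the Epi female culture (n = 79 cells). Aldoa was at -0.40 in the Epi male culture and -0.32 after 7 passages, but at 0.29 in the Epi female culture. The cells of a culture are not replicates, and the markers' part in the Epi values was not tested. The all-gene median was 0.27 with cells rescaled to the same sum and 0.02 with upper-quartile scaling.

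None of the 42 tested genes of the rest of the pathway was called between Epi and ES cells with both Epi cultures. Without the Epi female culture 2 were called lower, beside 1.84% of all genes, and none higher. One was Tigar, at -2.73 (SE 0.44, limma adjusted p = 0.0484). The other, named after its value was seen, was Epas1, which encodes HIF2A, at -3.01 (SE 0.38, limma adjusted p = 0.0301), against -1.31 (SE 0.87, limma adjusted p = 0.560) with both Epi cultures. Epas1 averaged 8.52 to 14.6 FPKM in the ES cultures and 14.2 in the Epi female culture, but 0.426 in the male one and 0.283 after 7 passages. The other values given here for the pathway are from both Epi cultures. The largest differences towards Epi were Ddit4, a hypoxia-response gene, at a log2 change of 2.28 (SE 0.63, limma adjusted p = 0.298), and Slc16a3, at 1.79 (SE 0.64, limma adjusted p = 0.356). Towards ES cells they were Tigar, at -1.78 (SE 0.56, limma adjusted p = 0.327), and Pdk1, the kinase that turns off pyruvate dehydrogenase, at -1.40 (SE 1.18, limma adjusted p = 0.655). Without the Epi female culture Ddit4 had 2.26, Slc16a3 1.47 and Pdk1 -3.67 (SE 0.64, limma adjusted p = 0.0589), all uncalled. Pdk1 averaged 17.3 to 135.6 FPKM in the ES cultures and 77.2 in the Epi female culture, but 2.36 in the male one, where the median cell was listed at 0. After 7 passages it averaged 9.96 FPKM. The other isoform partners lay between -0.69 (Slc2a3) and 1.13 (Eno2), with Ldhb at 0.95, Slc16a1 at 0.71, Pfkm at 0.32, Gapdh at 0.30, Hk1 at -0.47 and Aldoc at -0.58.

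The female Epi culture of 7 passages is a table of its own, so its levels are set beside the others with no test. Ldha averaged 929 ± 553 FPKM (SD, n = 41 cells), between both first-table Epi cultures, and Pkm 720 ± 175. Pfkl averaged 77.96 and Pfkp 11.7 FPKM, near the male Epi values of 72.3 and 10.1 and not near the female ones for Pfkp, at 57.8. Eno1 averaged 904, Slc2a1 223 and Hk2 54.7 FPKM. Slc16a3 averaged 132.2 ± 97.6 FPKM (SD, n = 41 cells), against 32.9 and 20.8 in the first female and the male Epi culture.

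**Figure D2:**
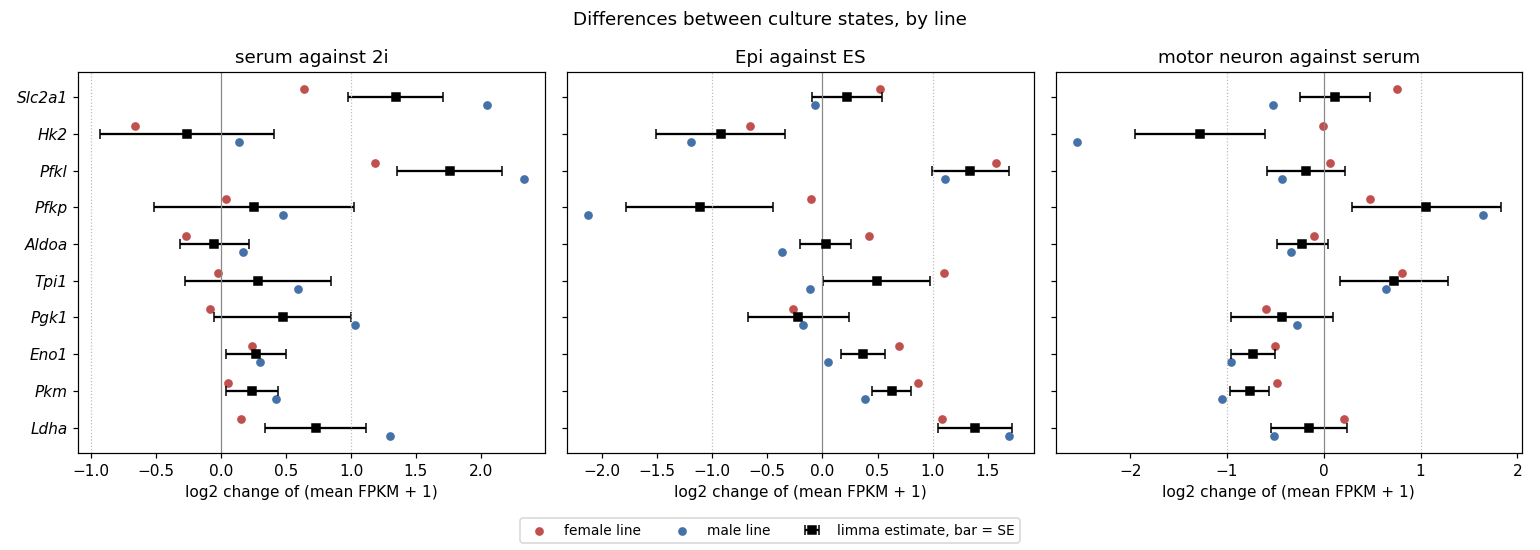
Log2 change of mean FPKM + 1 (x axis) for each member (y axis) in the 3 comparisons, with the limma estimate and its standard error in black, the female line in red and the male line in blue; dotted lines mark a log2 change of 1 in either direction. No member was called in any of the 3, and for Pfkp in Epi against ES the male line lay at -2.12 and the female line at -0.10.

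Differentiated cells were then set against serum ES cells, a comparison that shares the serum cultures with both others. Pkm averaged 259.1 and 241.8 FPKM in motor neuron cultures (female, male) against 363 and 501.3 in serum, and was lower in both lines, at a log2 change of -0.77 (SE 0.20, limma adjusted p = 0.0289). Eno1 averaged 389 and 308 FPKM against 552 and 597, at -0.73 (SE 0.23, limma adjusted p = 0.0492). Both passed the adjusted p but not the log2 change of 1, so neither was called. Hk2 averaged 63.2 FPKM in the female culture, level with 63.4 in serum, and 13.2 in the male one, against 82.3 in serum. In the male culture 14 of 35 cells (40%, 95% exact Clopper-Pearson interval 23.9 to 57.9) reached 1 FPKM of Hk2, against 29 of 39 (74.4%, interval 57.9 to 87.0) in the female culture. Its log2 change was -1.28 (SE 0.67, limma adjusted p = 0.181), and adjusted p was 0.0109 to 0.719 over the alternatives. Pfkp averaged 87.8 and 178 FPKM against 62.98 and 56.1, at 1.06 (SE 0.77, limma adjusted p = 0.312), with medians of only 14.1 and 33.2. The remaining members lay between -0.43 (Pgk1) and 0.72 (Tpi1).

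The summed FPKM of protein-coding genes had medians of 808627 and 937583 in these cultures against 540242 and 549138 in serum. With 0 of 10 members called, 4669 of 15504 genes were called higher (30.1%) and 419 lower (2.7%). The count at an unadjusted p under 0.05 was 2 members and 7383 genes. The median log2 change of all genes was 0.71 and that of the members -0.20, and the all-gene median moved to 0.14 with cells rescaled to the same sum and to 0.00 with upper-quartile scaling. Calls then split as 2166 higher and 971 lower after rescaling, and 2183 and 1611 after upper-quartile scaling. Under these scalings 2 members (Eno1 and Pkm) and 3 (Aldoa as well) were called lower, respectively. Slc2a1 turned sign under both, to -0.32 and -0.74, and Tpi1 under the second, to -0.14. Without the serum female or the serum male culture the higher calls numbered 1546 and 1782. Means did not overlap for Pfkp, higher, as for 54.8% of all genes, and for Hk2, Eno1 and Pkm, lower, as for 15.9%.

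Partner genes of the members were among those called in the motor neuron cultures. Of the 42 tested pathway genes 12 rose (28.6%) and 1 fell, a share of rises near that of all genes (30.1%). With cells rescaled to the same sum 6 of the 42 were called higher, a share near the 14.2% of all genes, and 2 lower. With upper-quartile scaling 8 of the 42 were called higher, beside 14.1% of all genes, and 6 lower. The genes called higher under either scaling were all among the 12. The values that follow are as deposited. Eno2, the neuronal enolase, rose by 3.81 (SE 0.86, limma adjusted p = 0.0177), from 0.276 and 7.03 FPKM in serum (female, male) to 31.3 and 61.7. Hk1 rose by 2.29 (SE 0.39, limma adjusted p = 0.00743), from 2.63 and 4.24 to 15.0 and 27.2 FPKM. Ldhb, the heart-type lactate dehydrogenase, rose by 1.86 (SE 0.42, limma adjusted p = 0.0171), from 44.2 and 92.1 to 250 and 221 FPKM. Both subunits of the mitochondrial pyruvate carrier rose, Mpc2 by 2.30 and Mpc1 by 2.09, and so did Pfkfb4 (2.45) and Pfkfb2 (1.87), which make or break down fructose 2,6-bisphosphate. P4ha1 (3.70), a collagen prolyl hydroxylase, and Vhl (2.22), part of the ligase that degrades HIF proteins, rose as well. The gene that fell was Ldhc, at -1.53 (SE 0.47, limma adjusted p = 0.0470), named after its value was seen. Of these 10 genes, Mpc1, Mpc2 and P4ha1 were called in all 16 alternatives, Hk1 in 15, Eno2 and Pfkfb4 in 13, Vhl in 12, Pfkfb2 in 11 and Ldhb in 10, and Ldhc in 6 of 15. Ldhb lost its call under both scalings, at 1.13 (limma adjusted p = 0.0938) with rescaled cells and 1.01 (limma adjusted p = 0.114) with upper-quartile scaling. Pfkfb2 (1.31, limma adjusted p = 0.0617) and Vhl (1.56, limma adjusted p = 0.0560) lost theirs with rescaled cells. Without the female serum culture Hk1, Eno2, Pfkfb4, Vhl, Pfkfb2, Ldhb and Ldhc were not called. The lowest log2 changes that were not called were Pdk1, at -2.94 (SE 1.37, limma adjusted p = 0.138), and Slc16a3, at -1.53 (SE 0.74, limma adjusted p = 0.149). Aldoc had 2.46, Slc16a1 1.29, Pfkm 1.18, Gapdh -0.95 and Slc2a3 -0.17, all uncalled. By list, 3 of 5 fructose 2,6-bisphosphate genes, 2 of 6 lower-step genes, 1 of 5 upper-step genes, 1 of 4 lactate genes, 2 of 7 pyruvate-fate genes, 2 of 8 regulators and 1 of 7 hypoxia-response genes rose.

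The motor neuron cultures held unlike cells, and the members split with them. The summed level of 7 neuron markers (Tubb3, Map2, Dcx, Stmn2, Isl1, Slc18a3, Mnx1) ran from 3.48 to 9910 FPKM over female cells and from 5.71 to 14458 over male cells. All 5 endoderm markers averaged at least 1 FPKM in both cultures, with Sox17 at 89.5 and 346. Pfkp followed the neuron markers, with a Pearson r over cells of 0.80 in the female culture (n = 39 cells) and 0.91 in the male one (n = 35 cells), and ran against the endoderm markers, at -0.58 and -0.86. Slc2a1 did the reverse, at -0.68 and -0.71 with the neuron markers and 0.49 and 0.77 with the endoderm markers. Hk2 lay with Slc2a1, at -0.60 and -0.54 against the neuron markers. Pkm was at 0.28 and 0.74 with the neuron markers, and Ldha was near 0 in the female culture (0.06) and 0.26 in the male one. These are descriptions over cells that share a culture and are not replicates. With cells rescaled to the same sum Pfkp stayed at 0.79 and 0.91 and Slc2a1 at -0.65 and -0.73, while Pkm went to 0.05 and 0.66. The share of each kind of cell in a culture moves its mean, and fewer cells of a type and less RNA per cell cannot be told apart in a culture mean.

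**Figure D3:**
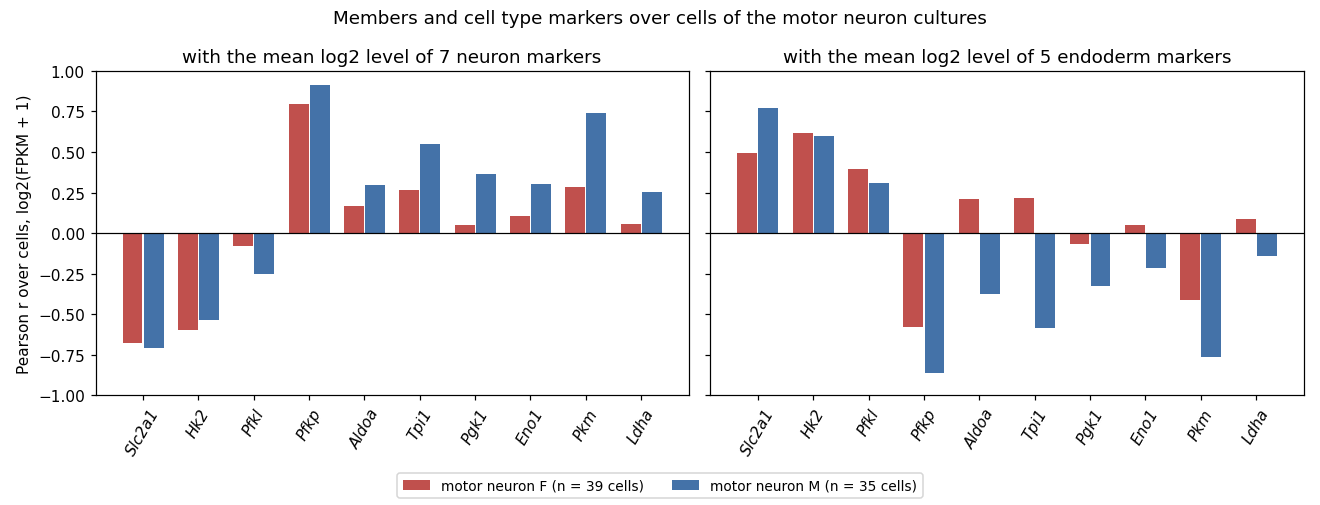
Pearson r (y axis) over the cells of the female (red, n = 39) and male (blue, n = 35) motor neuron culture between each member (x axis) and the mean log2 level of 7 neuron markers (left) or 5 endoderm markers (right). Pfkp reached 0.80 and 0.91 with the neuron markers, and Slc2a1 -0.68 and -0.71.

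In the embryo the comparison was between stages, with 1 sample for each, so no test was made. The ICM cells at E3.5 and the epiblast cells at E4.5 were in 1 table. Ldha averaged 19.8 ± 17.1 FPKM (SD, n = 23 cells) at E3.5 and 20.6 ± 21.96 (SD, n = 23 cells) at E4.5, and Eno1 16.3 ± 10.1 and 23.005 ± 16.1. Slc2a1 averaged 24.99 and 16.997 FPKM, Pkm 41.8 and 29.6, and Hk2 73.96 and 55.6, so these 3 were lower at E4.5 on average, within the spread of the cells. Aldoa was the most abundant member at both stages, at 215 and 270.8 FPKM. Only Pfkp passed a log2 ratio of 1 among the members, from 6.83 ± 7.78 to 28.6 ± 41.5 FPKM, but the medians were 3.59 and 6.91, and a few high cells, up to 156 FPKM, carried the mean. Over all genes 12.6% passed that ratio upwards and 14% downwards. By the 7 leading title numbers of E4.5 cells, the mean of Pfkp ran from 0 to 54.5 FPKM.

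Between E4.5 and E5.5 the levels of most members lay far apart. The tables were normalised separately and their protein-coding sums differ, so each fold of FPKM is followed by the fold of the share of protein-coding FPKM. Ldha averaged 2755 ± 318 FPKM (SD, n = 20 cells) in female and 3060 ± 290 (SD, n = 63 cells) in male E5.5 cells, and the mean of both sexes was 140.9-fold the E4.5 level in FPKM and 62.2-fold in share, from 0.00664% to 0.381% and 0.444%. Eno1 averaged 3003 ± 305 and 2715 ± 310, or 124.3-fold in FPKM and 54.01-fold in share. For Pkm these folds were 49.6 and 21.5, for Pfkl 41.2 and 18.2, for Slc2a1 32.4 and 14.1, for Tpi1 16.2 and 7.06, for Pgk1 14.6 and 6.37 and for Aldoa 7.01 and 3.06. Hk2 and Pfkp changed direction with the scale. They were 1.26-fold and 1.11-fold the E4.5 level in FPKM, but as a share Hk2 was 1.83-fold lower, from 0.0182% to 0.00936% and 0.0105%, and Pfkp 2.03-fold lower, from 0.00903% to 0.00547% and 0.00345%. For 8 members, all but Hk2 and Pfkp, the lowest of 83 E5.5 cells lay above the highest of 46 blastocyst cells in FPKM. For Ldha these were 2287 and 79.95 FPKM. In shares this held for 7, since Slc2a1 reached 0.0307% in a blastocyst cell and 0.0232% in the lowest E5.5 cell. How many of all genes have ranges apart in this way was not counted, so these counts only describe the members. In FPKM 75.9% of all genes had a higher mean at E5.5 than at E4.5. A log2 ratio of at least 3 was passed by 7 of 10 members upwards, against 5.49% of 14873 genes, and by none downwards, against 2.23%. With cells rescaled to the same protein-coding sum, a setting chosen after seeing the data, 5 members passed it upwards, against 3.29% of 15938 genes, and none downwards, against 4.57%. The members' median log2 ratio was 4.47, beside 0.97 for all genes, and 3.30 beside -0.09 after rescaling. The FPKM of all protein-coding genes summed to a median of 307635 and 311526 in blastocyst cells against 692527 and 724144 at E5.5. The parents' strains also differ between these stages, CAST/EiJ and C57BL/6J against C57BL/6J alone, and stage, strain and table cannot be told apart here.

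Lactate handling differed with the members. Slc16a3 averaged 0.350 and 0.630 FPKM at E3.5 and E4.5 and 495 and 476 in female and male E5.5 cells. Ldhb was listed at 0 in all 23 E3.5 cells and averaged 0.0328 at E4.5, against 205.6 and 228.01 FPKM at E5.5. Other partners at E4.5 and E5.5 averaged 52.5 and 235.3 (Slc2a3), 0.832 and 9.26 (Hk1), 1.46 and 24.3 (Pfkm), 1.53 and 20.2 (Aldoc), 57.97 and 928 (Gapdh), 6.28 and 95.003 (Slc16a1), 3.11 and 57.4 (Pdk1) and 2.31 and 1.44 FPKM (Eno2). As shares of protein-coding FPKM, E5.5 over E4.5 was 1.94-fold (Slc2a3), 4.83 (Hk1), 7.59 (Pfkm), 5.75 (Aldoc), 7.01 (Gapdh), 6.55 (Slc16a1) and 8.01 (Pdk1). Eno2 was 3.64-fold lower as a share. Of the 47 pathway genes above 1 FPKM at either stage 14 passed a log2 ratio of 3 upwards and 2 downwards, against 5.49% and 2.23% of all genes. With rescaled cells 5 and 6 of 48 did, against 3.29% and 4.57% of all genes. Slc16a3 and Ldhb were higher at E5.5 on both scales, at log2 ratios of 7.60 and 7.59 with rescaled cells. The 2 that passed downwards in FPKM, named after their values were seen, were Pgam2, at 33.7 and 2.32 FPKM, and Ddit4, at 31.1 and 2.15. With rescaled cells Pdk4 (-3.23), Egln1 (-3.08) and the hypoxia-response genes Car9 (-3.44) and Ndrg1 (-3.18) passed downwards as well, also named after their values were seen. The regulators Hif1a, at 4.91 FPKM at E4.5 and 49.8 at E5.5, and Myc, at 17.1 and 92.8, were also named after their values were seen. As shares they were 4.42-fold and 2.37-fold higher at E5.5. Other regulators on the list went the other way, with log2 ratios in FPKM of -1.94 (Epas1) and -1.92 (Egln1), and of -2.96 and -3.08 with rescaled cells. Vhl was level in FPKM, at 0.02, and lower with rescaled cells, at -1.11. Arnt, Egln3 and Mycn were higher in FPKM. With rescaled cells Arnt was level, at 0.01, and Egln3 (1.59) and Mycn (1.44) stayed higher. The part of any regulator in the members' levels was not tested.

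**Figure D4:**
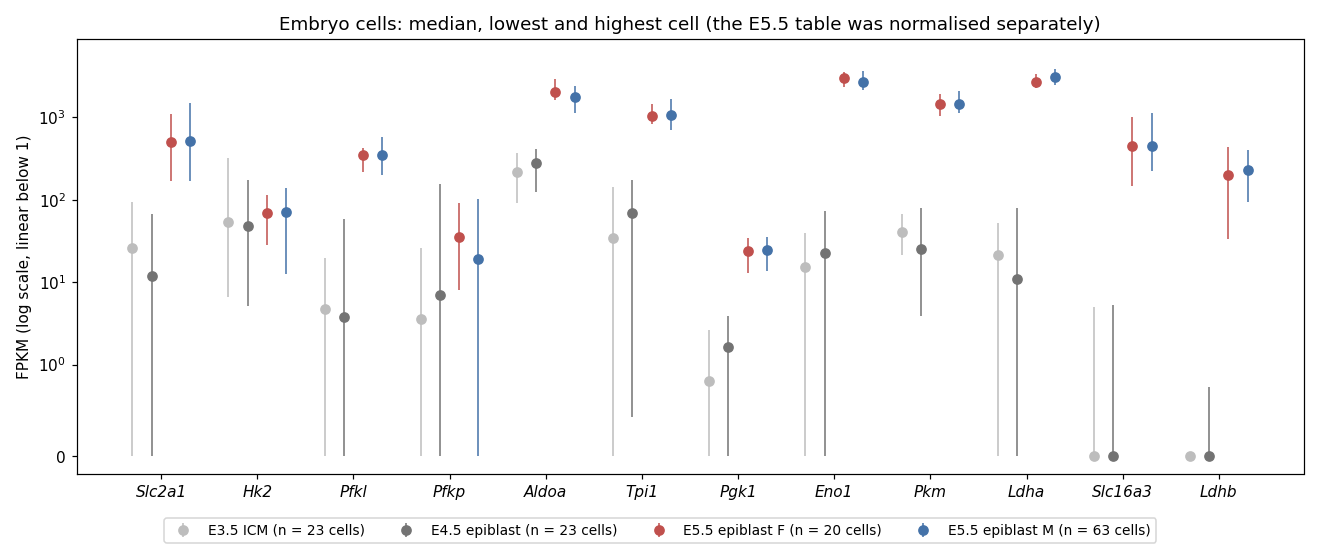
Median (point) and lowest to highest cell (line) of FPKM (y axis, logarithmic above 1 and linear below) for the members and for Slc16a3 and Ldhb (x axis) at E3.5 (light grey), E4.5 (dark grey) and E5.5 (red female, blue male). In FPKM the E5.5 range lies above the whole blastocyst range for 8 of the members and overlaps it for Hk2 and Pfkp. The same was not counted over all genes, and the tables of the blastocyst and of E5.5 were normalised separately.

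Shares within an isoform family do not depend on how a table is scaled. Pfkl made up 17.8% and 22.1% of the phosphofructokinase level (Pfkl, Pfkp and Pfkm) in 2i (female, male), 33.1% and 52.4% in serum, 50.9% and 76.3% in Epi, 74.7% after 7 passages, and 84.8% and 87.7% at E5.5. Pfkp made up 75.5% and 62.9% in 2i and 9.85% and 5.79% at E5.5, and 62.2% and 68.9% in the motor neuron cultures. In both lines the Pfkl share was lowest in 2i and highest in Epi among the pluripotent cultures. In mean FPKM Slc2a3 outweighed Slc2a1 in 2i (60.8% and 70.6% of their sum) and in the blastocyst (84.8% and 75.5%), and lay at 21.9% to 46.6% in all other groups. At E3.5 a single cell at 2468 FPKM carried the Slc2a3 mean of 140. The medians there were 18.6 FPKM for Slc2a3 and 25.9 for Slc2a1, the reverse order. At E4.5 the medians were 33.9 and 11.9 FPKM. Ldhb made up 6.93% to 12.9% of the lactate dehydrogenase level in the pluripotent cultures and at E5.5, 38.9% and 33.6% in the motor neuron cultures, and 0 and 0.159% in the blastocyst. Hk1 made up 67.3% of Hk1 and Hk2 in the male motor neuron culture and 19.2% in the female one, against 1.47% to 13.3% elsewhere. Eno2 made up 7.45% and 16.7% of Eno1 and Eno2 in motor neuron cultures, at most 1.16% in the other cultures, and 9.14% at E4.5. Aldoc made up 24.5% of Aldoa and Aldoc in the male motor neuron culture and at most 3.10% elsewhere. These shares are ratios of mean FPKM, and their spread over cultures is that of the pairs given.

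**Figure D5:**
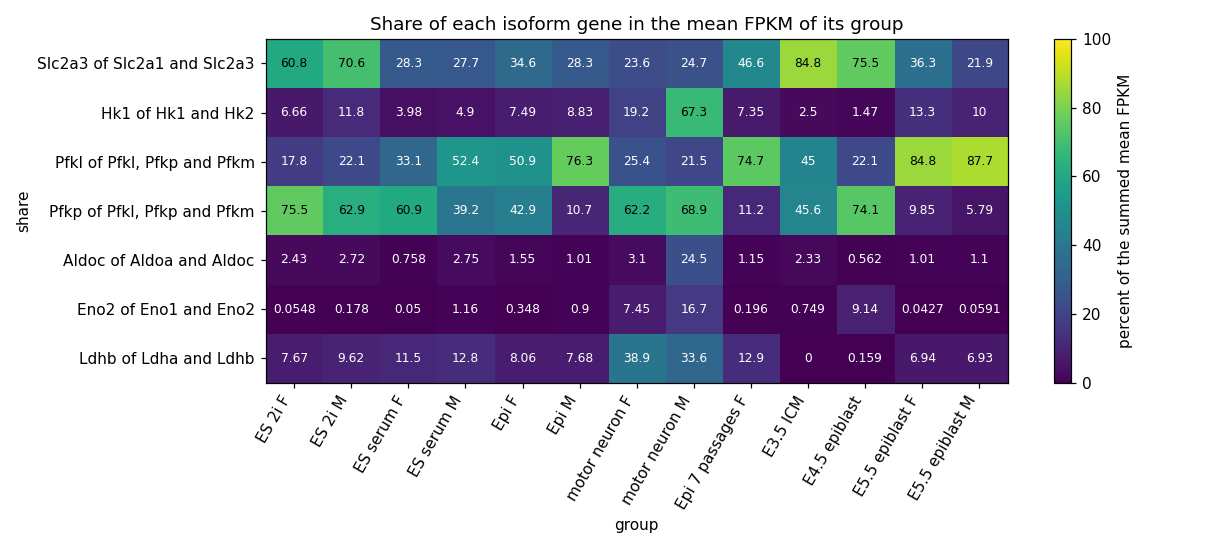
Share (colour and number, in percent of summed mean FPKM) of 1 isoform gene in its family (y axis) in each group (x axis; F female, M male). The Pfkl share ran from 17.8% in female 2i cells to 87.7% in E5.5 males.

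Female and male levels had 1 culture per arm and no test. Pgk1 is X-linked and the others are autosomal. The log2 ratio of female to male Pgk1 was 0.14 in 2i, -0.97 in serum, -0.51 in Epi, -1.29 in motor neuron cultures and -0.09 at E5.5. The median of all X-linked genes was 0.46, 0.39, 0.31, -0.15 and -0.02 in the same order, so Pgk1 lay under it in every state. At E5.5, where both sexes were dissected from embryos, the members lay between -0.15 (Ldha) and 0.71 (Pfkp). In the cultures the widest ratios were 2.402 for Pfkp in Epi, 2.18 for Hk2 in motor neuron cultures and -1.34 for Tpi1 in serum.

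Within a culture the members' levels went together from cell to cell to different degrees. The median Pearson r over the 45 pairs was 0.53 in the male serum culture, the highest of the 13 groups, and 0.11 to 0.30 in the others. Pairs of all genes at 10 FPKM or more had medians of 0.00 to 0.07. Within the runs of the male serum culture it was 0.14 (n = 13 cells) and 0.65 (n = 39 cells). There the members also followed 8 hypoxia-response genes, at r of 0.21 (Pfkp) to 0.82 (Aldoa) over 52 cells. In the female serum culture the same values were -0.06 to 0.36. Eno1 and Pkm, neighbours in the lower steps, had an r of 0.44 to 0.79 in the 6 ES and Epi cultures of the main table, and Slc2a1 and Pfkp -0.56 and -0.59 in the motor neuron cultures. These relations are over cells of the same group, which differ in depth, and are given as descriptions.

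Over the 8 cultures of the main table the members did not share 1 profile. The mean of their standardised levels had an r of 0.81 with Pfkl, 0.68 with Aldoa, 0.66 with Ldha and 0.64 with Pkm, but -0.12 with Hk2 and -0.10 with Pfkp. Each member is itself part of that mean, which pushes its r upwards. The genes most like that mean among 7506 genes at 10 FPKM or more were the mismatch repair gene Pms2 (r = 0.95), Mir377 (0.93) and Senp2, a SUMO protease gene (0.93). The 10 FPKM is a mean over cultures, and Mir377 was listed at 0 in both 2i, both motor neuron and the female serum culture. Pms2 ran only from 10.9 to 19.6 FPKM and Senp2 from 12.6 to 16.2. With 8 cultures, no p is given.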

How the data were processed

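Full-length cDNA of single cells was made by SMART-seq2 and fragmented with Tn5, as the labels' protocols say. The authors deposited FPKM per gene and cell in 4 tables. STAR 2.4.1, Cufflinks, Cuffnorm 2.2.1 and mm10 are named, per the submitters' processing notes; their annotation, strandedness and cell filters are not given in the sources used here. In 356 values an exponent was written with a low line and read as a minus. Of the 43628 IDs 42548 matched GENCODE vM21 (GRCm38), which gave symbols, positions and exon lengths. All value columns mapped to samples, and no 2 cells of a table correlated above 0.938 (Pearson), so none was a repeat.

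Depth was estimated per cell: FPKM times exon bases of the 400 lowest protein-coding genes over 1000 bases piles up near the value of 1 fragment, and the 5th percentile was taken as that value. It is approximate. Intervals cover counting of cells only.

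A culture is 1 sample and its cells are not replicates. The mean FPKM per culture entered limma 3.58.1 (R 4.3.3; trend = TRUE) as log2(mean + 1), for the 15504 genes that averaged 1 FPKM or more over 8 cultures, 4 residual degrees of freedom, Benjamini-Hochberg over all genes. The pseudocount of 1 understates changes of low genes. A call needs both an adjusted p below 0.05 and a log2 change of 1 or more in size. Both lines serve as replicates, so p-values measure the spread between 2 lines. Per the labels, the Epi and motor neuron cells came from the same lines; the female minus male deviations of states correlated at 0.06 to 0.16. The fit was also run on simulated data. Their spread between lines was set below that of these data, so the run checks the code and not its power here. Tables were not tested against each other. Copies were sought with blastn 2.17.0 (90% identity over 200 bases). Promoters are from RefSeq.

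Named genes were the 10 members, 10 isoform partners, per comparison up to 8 called genes of a list of 51 pathway genes with its 2 largest rises and falls, and the 3 genes most like the members. The members and lists were chosen with earlier results of these data known. Alternatives were dropping the filter on low values, a pseudocount of 0.1, a mean over cells of log2, rescaled cells, upper-quartile scaling, the line as a block, each run of title numbers, each culture left out, and thresholds of 0.1 and 5 FPKM for shares of cells.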

Additional observations from a re-analysis of the deposited data

Results flagged for a closer look

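The lines moved opposite ways for Slc2a1 between motor neuron and serum cultures. The log2 change was 0.75 in the female line and -0.52 in the male line, a difference of 1.28 that was not tested. Of the other members, with each comparison on its own, Pfkl and Ldha also differed in sign between the lines here, 3 (Slc2a1, Aldoa, Tpi1) did in Epi against ES and 4 (Hk2, Aldoa, Tpi1, Pgk1) in serum against 2i, but none with both lines at 0.5 or more in size.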

How the results depend on the processing

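The share of genes called moved with most settings, while members were called only in motor neuron against serum. All shares are percent of the genes tested, higher first. Epi against ES (0.0387% and 0.0258%) gave 0 lower without the low-value filter and 0.161% lower with the mean over cells of log2. Leaving out 1 culture gave 0 to 2.26% higher and 0 to 1.84% lower, both most without Epi female. Serum against 2i (0.00645% and 0.0129%) gave 0 and 0 with a pseudocount of 0.1, 0.0148% and 0.065% without the filter, 0.0709% and 1.37% with the mean over cells of log2, 0.0131% higher with rescaled cells, 0.0258% and 0.0516% with upper-quartile scaling, 0.0261% and 0.0912% in the lower run and 0.0585% and 0.137% in the higher run. Leaving out 1 culture gave 0 to 0.0516% higher and 0 to 0.193% lower, both most without either Epi culture. Motor neuron against serum (30.1% and 2.7%) gave 11.1% and 0.629% without the filter, where 33861 genes were tested in place of 15504, 16.6% and 5.51% with the mean over cells of log2, 14.2% and 6.36% with rescaled cells and 14.1% and 10.4% with upper-quartile scaling. Leaving out 1 culture gave 9.97% to 32.4% higher and 0.574% to 4.51% lower; the lowest were without serum female and serum male, the highest lower share without Epi female. Members called lower there numbered 1 (Hk2) with the mean over cells of log2, 2 with rescaled cells, 3 with upper-quartile scaling and 0 to 1 with 1 culture left out (Hk2, without motor neuron female). The cause was not tested.

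With the line as a replicate block the paired fit called 0.0193% and 0.00645% in Epi against ES, 0 and 0 in serum against 2i, and 31.6% and 3.25% in motor neuron against serum. It changed no call of a member.

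Directions turned in 10 of 160 refits of the members in Epi against ES, 11 of 160 in serum against 2i and 15 of 160 in motor neuron against serum. In Epi against ES, leaving out 1 culture moved Slc2a1 between -0.048 and 0.50, Pfkp between -2.32 and 0.087, Aldoa between -0.16 and 0.22 and Pgk1 between -0.47 and 0.032. Aldoa was -0.11 with upper-quartile scaling and -0.044 in the lower run, where Pgk1 was 0.045. In serum against 2i, leaving out 1 culture moved Pfkp between -0.045 and 0.55, Aldoa between -0.36 and 0.26, Tpi1 between -0.39 and 0.95 and Pgk1 between -0.014 and 0.96. Pfkp was -0.56 with the mean over cells of log2, Aldoa 0.00040 with upper-quartile scaling, and in the higher run Pfkp was -0.53, Eno1 -0.034 and Pkm -0.073. In motor neuron against serum, leaving out 1 culture moved Slc2a1 between -0.43 and 0.67, Pfkl between -0.74 and 0.37, Aldoa between -0.53 and 0.091, Pgk1 between -1.08 and 0.21 and Ldha between -0.59 and 0.29. Slc2a1 was -0.61 with the mean over cells of log2, -0.32 with rescaled cells, -0.74 with upper-quartile scaling and -0.14 in the higher run, Pfkl 0.026 in the higher run, Pfkp -0.41 with the mean over cells of log2, Tpi1 -0.14 with upper-quartile scaling and Ldha 0.52 in the lower run.

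Of 130 shares of cells, 11 left the interval of the main value at 0.1 FPKM and 14 at 5 FPKM. Of 50 ratios of female to male levels 3 turned sign with rescaled cells. With 2 lines per state, calls rest on few degrees of freedom, and blastocyst values near 1 FPKM rest on few fragments.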
